A study of Arabidopsis thaliana with 6 samples.

Results

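NAC transcription factors are a large plant family named after NAM, ATAF and CUC, and they share a DNA-binding NAC domain at the N-terminal end. Members switch on vessel and fibre walls, drive sieve element and root cap differentiation, set organ boundaries and act in drought, low-oxygen and senescence responses, and some are anchored in membranes until they are cleaved. In roots, single members have known places downstream of nitrate and auxin. The 90 genes described here are those of the 33557 genes in the expression tables whose listed name is NAC or ANAC followed by a number, with letter case ignored. The name is in capitals for 63 of them and in lower case (anac) for 27, and the gene annotation of RefSeq gives a NAC-domain product for 81 of the 90. Names are written as listed, with the common name in parentheses where it differs.

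RNA was sequenced from roots of *CEPDL2ox* plants, which express the glutaredoxin-like polypeptide CEPDL2 from the constitutive CaMV 35S promoter in the Col ecotype, and from roots of Col WT plants. Both were grown for 10 days on vertical plates with 10 mM nitrate and no ammonium, and each group had 3 libraries of single-end 75-base reads. Which transgenic line was used, and which plants entered each library, is not given in the sources used here, so p-values measure the spread between these libraries. Values are FPKM, that is fragments scaled by the length of the transcript and by sequencing depth, and therefore comparable between genes. The value of a single read puts the depth at about 5043000 to 5458000 reads in *CEPDL2ox* libraries and about 5789000 to 6191000 reads in WT libraries. *CEPDL2* itself (*AT3G62960*, GRXC14 in the tables) had 7948, 8838 and 8337 FPKM in *CEPDL2ox* roots, against 3.27, 5.78 and 9.45 FPKM in WT roots, the direction the labels give. All 5 root markers examined (*SCR*, *SHR*, *COBL9*, *PHT1.1* and *NRT2.1*) passed the filter on low values. Of these, *PHT1.1*, a phosphate transporter, and *NRT2.1*, the high-affinity nitrate transporter, rose, with log2 fold changes of 0.49 (limma, adjusted p = 0.020) and 1.40 (adjusted p = 0.00072). One WT library stood apart in leaf transcripts. The summed level of 13 leaf and photosynthesis markers was 262.4 to 548.3 FPKM in *CEPDL2ox* libraries, against 4291 FPKM in WT replicate 1 and 527.5 to 661.9 FPKM in the other WT libraries, and all 13 were highest in WT replicate 1. Results below are therefore also given without that library where it mattered.

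Promoter sequences are shown for the members with the largest differences. That of *NAC004* is given because this member rose and passed both thresholds, and because CC-type glutaredoxins, the class of CEPDL2, are known to bind TGA factors, bZIP proteins whose core recognition letters are TGACG. The promoter of *anac096*, the other member past both thresholds, is shown beside it. Each sequence holds the 250 bases before the RefSeq gene start (build TAIR10.1), and capitals mark TGACG on either strand (CGTCA on the other).
*NAC004*, chr1:436923-437172, minus strand: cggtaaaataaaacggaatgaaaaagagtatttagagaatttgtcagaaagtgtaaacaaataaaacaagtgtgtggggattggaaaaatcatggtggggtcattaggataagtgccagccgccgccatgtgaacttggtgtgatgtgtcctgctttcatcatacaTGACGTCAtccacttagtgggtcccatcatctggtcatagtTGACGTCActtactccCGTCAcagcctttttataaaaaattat
*anac096*, chr5:18905008-18905257, plus strand: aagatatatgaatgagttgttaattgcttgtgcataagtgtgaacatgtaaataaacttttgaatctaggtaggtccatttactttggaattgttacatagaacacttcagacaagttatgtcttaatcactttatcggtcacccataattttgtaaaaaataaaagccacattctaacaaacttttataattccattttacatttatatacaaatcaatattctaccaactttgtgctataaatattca
The *NAC004* promoter held the letters 5 times when both strands were counted. Of these, 4 formed 2 copies of the palindrome TGACGTCA, at positions -84 to -77 and -43 to -36 from the gene start, and 1 was a lone copy on the strand opposite to the gene at -27 to -23. At least 2 palindromes were found in 4 of the 27443 promoters of protein-coding genes (0.0146%), and at least 1 palindrome in 138 (0.503%). *NAC004* was the only one of the 90 members with it. At least 3 matches to TGACG on both strands together stood in 160 promoters (0.583%), among them that of *NAC078*, which held 3 and whose log2 fold change was 0.01 (SE 0.10). TGACG on either strand stood in 18 of the 90 member promoters (20.0%), against 18.6% of all promoters, and in 3 of the 6 members that rose (*NAC004*, *anac047* and *NAC102*). The *anac096* promoter did not hold these letters in this window. The motif was chosen after the values of *NAC004* had been seen, the palindrome was counted after its promoter had been read, and these matches are letters in a window, not measured binding.

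Of the NAC genes, 6 were higher in *CEPDL2ox* roots with an adjusted p under 0.05, and none was lower. Mean FPKM was 3.51-fold higher for *anac096* and 2.92-fold higher for *NAC004*, and between 1.43-fold and 1.58-fold higher for *anac047*, *NAC002* (*ATAF1*), *NAC102* and *anac046*. Differences were tested with limma on log2(FPKM + 1) with Benjamini-Hochberg adjustment over 19597 genes, those averaging 1 FPKM or more across libraries, and 63 of the 90 members passed this filter. A log2 fold change on this scale understates the change of genes near 1 FPKM. The 6 members are 9.52% of those tested, against a background of 3.71% of all tested genes that were higher at this threshold. The background for lower genes was 2.00%. At an unadjusted p under 0.05 limma had 16 members higher (25.4%, background 11.4%) and 3 lower (4.76%, background 11.8%). The same backgrounds apply to the counts at this threshold in the lists below. With the further threshold of a log2 fold change above 1, *NAC004* and *anac096* were called, 3.17% of the tested members against 1.16% of all tested genes. No member was called lower, against 0.424% of genes. The share of members was not tested against the background. In whole roots, a change in the number of cells of a type and in the RNA per cell cannot be told apart.

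*NAC004* (*AT1G02230*) lies on chromosome 1 from 434965 to 436922 (TAIR10.1), between its relatives *NAC003* and *NAC005*. It had 8.43, 9.49 and 7.29 FPKM in *CEPDL2ox* roots, against 2.88, 3.62 and 2.12 FPKM in WT roots. Every *CEPDL2ox* library was above every WT library by more than the range within either group. The mean was 2.92-fold higher, with a log2 fold change of 1.29 (SE 0.18, adjusted p = 0.0086). About 57 reads (56.9) in *CEPDL2ox* and 21 reads (20.7) in WT stood behind the median library. *NAC004* was the member that best held when single libraries were left out. Its adjusted p was 0.016 to 0.048 in 5 of the 6 such fits and 0.053 without *CEPDL2ox* replicate 1, and its log2 fold change was 1.14 to 1.43.

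The relatives of *NAC004* on either side did not pass. Between *NAC003* and *NAC004* lies *AT1G02228*, which was listed at 0 in every library. *NAC003* had 81.8, 77.2 and 75.9 FPKM in *CEPDL2ox* roots, against 64.4, 68.9 and 58.4 FPKM in WT roots. Its groups did not overlap, but its log2 fold change was 0.29 (SE 0.08) and its adjusted p 0.088. *NAC005* was under the filter, with 1.22, 1.63 and 0.438 FPKM in *CEPDL2ox* roots against 0.190, 0.896 and 0.383 FPKM in WT roots, and its groups overlapped. The gene beyond *NAC005*, *AT1G02260*, had a log2 fold change of 0.31 (SE 0.10, adjusted p = 0.13). The coding sequences of *NAC004* and *NAC005* were 75.4% identical, and those of *NAC003* and *NAC004* 69.7%. No 75-base window was shared without a mismatch among the 3 transcripts, so a read without errors from one does not match another over its whole length.

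*anac096* (*AT5G46590*) lies on chromosome 5 from 18905258 to 18907052 and codes for a factor that acts with ABA-responsive bZIP proteins in dehydration responses. It had 3.89, 6.28 and 5.64 FPKM in *CEPDL2ox* roots, against 0.790, 1.49 and 2.22 FPKM in WT roots. The groups did not overlap, although the lowest *CEPDL2ox* library was less than 2-fold above the highest WT library. The mean was 3.51-fold higher and the log2 fold change was 1.35 (SE 0.26, adjusted p = 0.029). This call was less firm than that of *NAC004*. The median WT library held about 12.4 reads, and the adjusted p was 0.034 without WT replicate 3 but 0.064 to 0.11 when any other library was left out.

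**Figure D1:**
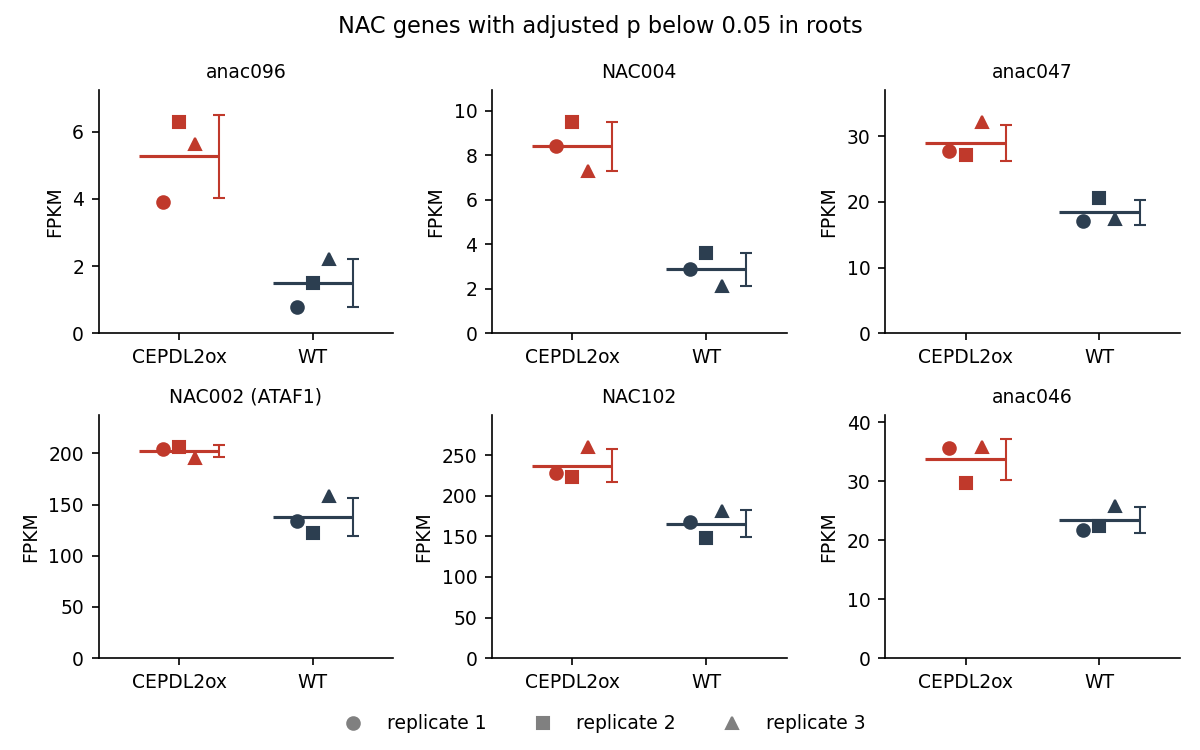
FPKM in each library (symbols: replicates 1 to 3) for the 6 NAC genes with an adjusted p under 0.05, *CEPDL2ox* left and WT right in each panel, with horizontal lines at group means and bars of ± 1 SD (n = 3). In all 6 panels each *CEPDL2ox* library lies above each WT library, and the separation relative to the level is widest for *anac096* and *NAC004*.

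Of the 5 most abundant NAC transcripts of these roots, 4 belong to the stress and senescence list, and 2 of the 4 genes of its ATAF branch rose in *CEPDL2ox* roots. These 5 were *NAC102*, *NAC002* (*ATAF1*), *NAC072* (*RD26*), *ANAC083* (*VNI2*) and *NAC081* (*ATAF2*), each above 100 FPKM on average. Together they held 42.2% to 42.6% of the summed FPKM of all members in *CEPDL2ox* libraries and 38.2% to 40.3% in WT libraries. *NAC002*, an early drought- and ABA-responsive regulator, had 204, 206 and 195 FPKM in *CEPDL2ox* roots, against 134, 122 and 158 FPKM in WT roots. Its log2 fold change was 0.55 (SE 0.10, adjusted p = 0.022). *NAC102*, linked to germination under low oxygen, had 227, 223 and 260 FPKM in *CEPDL2ox* roots, against 168, 148 and 181 FPKM in WT roots. Its log2 fold change was 0.51 (SE 0.10, adjusted p = 0.026). For both genes the groups did not overlap, and about 1620 reads in *CEPDL2ox* and 1130 reads in WT stood behind the median library of *NAC002*, and about 1390 reads in *CEPDL2ox* and 1090 reads in WT behind that of *NAC102*.

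The other members of the ATAF branch had positive log2 fold changes that did not pass. *NAC081* had 108, 122 and 113 FPKM in *CEPDL2ox* roots, against 88.3, 92.1 and 98.5 FPKM in WT roots, with a log2 fold change of 0.29 (SE 0.08, adjusted p = 0.075). The last gene of the branch, *anac032*, had 92.9, 97.1 and 96.2 FPKM in *CEPDL2ox* roots, against 77.1, 69.5 and 94.4 FPKM in WT roots. Its groups overlapped through WT replicate 3, and the log2 fold change was 0.26 (SE 0.11, adjusted p = 0.22). The summed level of the 4 genes was 632.3, 648.4 and 664.4 FPKM in *CEPDL2ox* roots, against 467.6, 431.9 and 531.8 FPKM in WT roots. The summed level of all 90 members was 1909 to 1944 FPKM in *CEPDL2ox* libraries and 1582 to 1777 FPKM in WT libraries. Neither sum was tested. Coding sequences within the branch were 51.7% to 63.7% identical and no 75-base window was shared without a mismatch. *NAC002* overlaps a long non-coding gene on the opposite strand over 344 bases, *NAC102* overlaps *SHA1* over 85 bases and *NAC081* overlaps *AT5G08780* over 158 bases. In all, 16 of the 90 members overlap another annotated gene. The library kit does not mark strand, so reads there cannot be assigned to one gene, and *SHA1*, next to *NAC102*, had a log2 fold change of 0.01 (SE 0.14). On its other side, *BGAL6* had -0.20 (SE 0.12) and *BGAL10*, beyond it, -0.53 (SE 0.11, limma, adjusted p = 0.035). Next to *NAC002*, *AT1G01725* had 0.11 (SE 0.25) and *AT1G01730*, beyond it, 0.39 (SE 0.09, adjusted p = 0.048).

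Another gene of the stress group, *anac047* (*AT3G04070*), which acts in leaf senescence and in leaf movement under waterlogging, lies beside *anac046* (*AT3G04060*), and both rose. *anac047* had 27.7, 27.1 and 32.1 FPKM in *CEPDL2ox* roots, against 17.2, 20.6 and 17.4 FPKM in WT roots, with a log2 fold change of 0.63 (SE 0.11, adjusted p = 0.019). *anac046*, a regulator of cell death in the root cap and of suberin, had 35.6, 29.8 and 35.8 FPKM in *CEPDL2ox* roots, against 21.8, 22.4 and 25.9 FPKM in WT roots, with a log2 fold change of 0.51 (SE 0.11, adjusted p = 0.038). The lowest *CEPDL2ox* library was above the highest WT library for both. The pair spans chromosome 3 from 1053360 to 1063234, with 6103 bases between the genes. The gene on the far side of *anac047*, *APY1*, had 29.4, 30.6 and 34.9 FPKM in *CEPDL2ox* roots against 30.9, 30.8 and 30.4 FPKM in WT roots and a log2 fold change of 0.04 (SE 0.09). *AT3G04050*, on the far side of *anac046*, was at or under 1.09 FPKM in every library.

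The rest of the stress and senescence list was mixed. Of its 13 genes, 11 were members by name and 9 of those were tested. At an adjusted p under 0.05, 4 rose, none fell and 5 did not pass, against backgrounds of 3.71% higher and 2.00% lower. At an unadjusted p under 0.05 in limma, 7 passed, 6 of them higher, against backgrounds of 11.4% higher and 11.8% lower. The median log2 fold change was 0.29, against -0.03 over all tested genes. *NAC072* (*RD26*), an ABA- and drought-induced activator, had 139, 119 and 125 FPKM in *CEPDL2ox* roots, against 130, 141 and 150 FPKM in WT roots, a log2 fold change of -0.14 (SE 0.09, adjusted p = 0.38). Its close relative *NAC055*, chosen for mention after its values were seen, had 5.56, 7.27 and 6.52 FPKM in *CEPDL2ox* roots, against 7.08, 13.1 and 13.5 FPKM in WT roots. With all libraries its log2 fold change was -0.67 (SE 0.23, adjusted p = 0.14). WT replicate 1, the library with the leaf transcripts, was the one WT library in the *CEPDL2ox* range, and without it the log2 fold change was -0.94 (SE 0.15, adjusted p = 0.032). The part of the leaf transcripts in this was not tested. Another relative, *NAC019*, was listed at 0 in all WT libraries and at 1.01, 0.336 and 0.180 FPKM in *CEPDL2ox* libraries, a level too low for a test. Its neighbour *NAC018* (NAM, a regulator of seed coat and embryo development) is in no role list. *NAC018* had 5.72, 5.73 and 3.72 FPKM in *CEPDL2ox* roots, against 3.23, 1.59 and 3.11 FPKM in WT roots. Its groups did not overlap, but the adjusted p of its log2 fold change of 0.75 (SE 0.25) was 0.12. Genes that stress NAC factors are known to bind (*SAG113*, *SGR1*, *NYC1*, *AAO3* and *ERD1*) did not pass in any of 5 cases (limma, 1 at an unadjusted p under 0.05), with a median log2 fold change of 0.03.

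**Figure D2:**
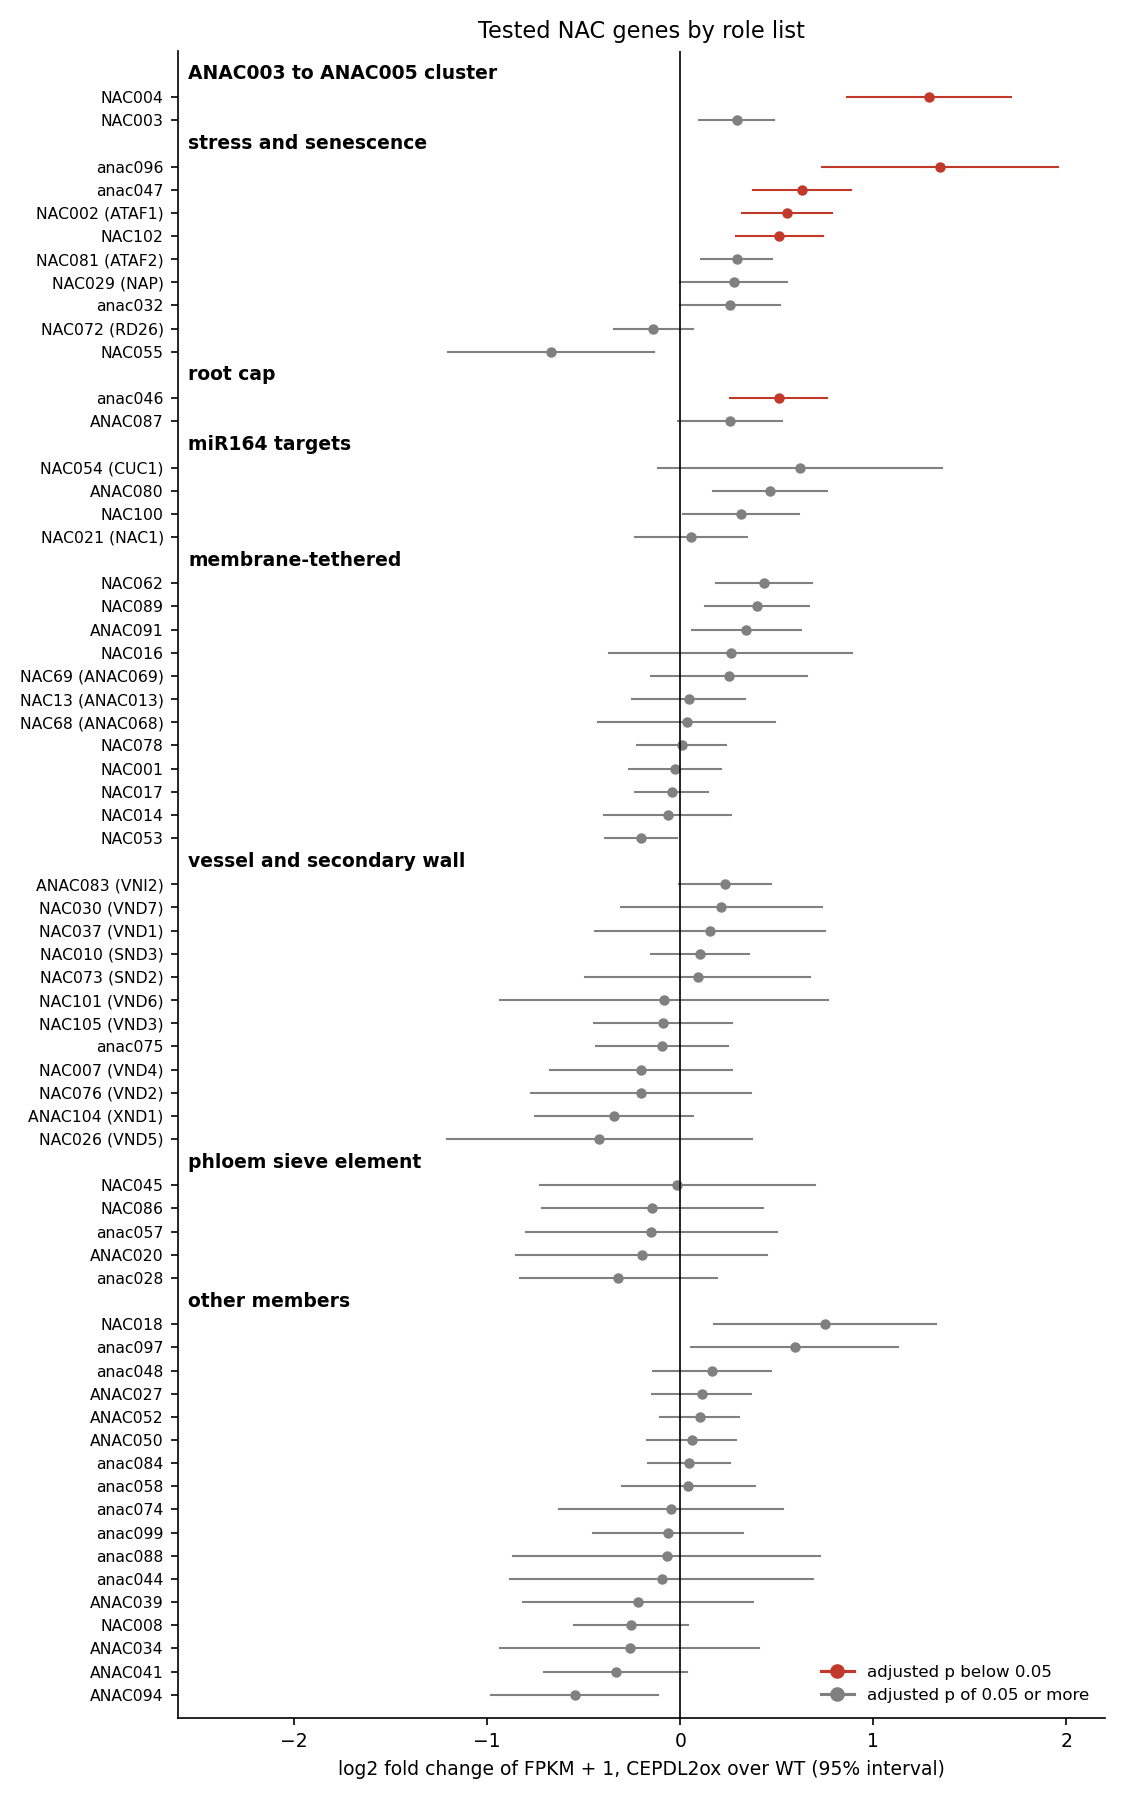
Log2 fold change of FPKM + 1 in *CEPDL2ox* over WT roots for the 63 tested NAC genes, grouped by role list, with 95% intervals from limma (3 libraries per group). The genes with an adjusted p under 0.05 (red) all lie right of 0, with 4 of the 6 in the stress and senescence list, while the 5 sieve element genes all lie left of 0 with intervals that cross it.

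Apart from *anac046*, the root cap list had a single member, *ANAC087*, which acts with *anac046* in cell death of the root cap. It had 46.6, 41.9 and 50.5 FPKM in *CEPDL2ox* roots, against 34.4, 37.3 and 44.4 FPKM in WT roots, and the groups overlapped. Its log2 fold change of 0.26 (SE 0.12) did not pass (adjusted p = 0.23). The 5 genes of the cell death programme downstream of the root cap factor *SMB* (*PASPA3*, *RNS3*, *BFN1*, *SCPL48* and *DMP4*) had a median log2 fold change of 0.25, with 4 above 0 and none past the threshold (limma). At an unadjusted p under 0.05, 2 were higher, against 11.4% of all tested genes. Of the 5, *RNS3*, a ribonuclease, had the lowest adjusted p, 0.071, at a log2 fold change of 0.45 (SE 0.12).

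The targets of miR164 include *ANAC080*, known as a step between nitrate, the auxin receptor *AFB3* and lateral root growth, and *NAC021* (*NAC1*), which carries auxin signals in lateral root formation. The mature miRNA and its site in each member transcript are shown because they define this group. In the miRNA, capitals mark the seed, bases 2 to 8.
miR164a (chr2:19520770-19520790, plus strand): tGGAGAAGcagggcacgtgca
miR164c-5p (chr5:9852684-9852704, plus strand): tGGAGAAGcagggcacgtgcg
The mature miR164b-5p has the same letters as miR164a, and all 3 share the seed. In the sites, capitals mark bases that form Watson-Crick pairs with miR164a. Lower case marks all other bases, including a t opposite a G, which can still pair as G:U in RNA.
*NAC021* (*NAC1*), chr1:20947142-20947162, minus strand: aGCACGTaCCCTGCTTCTCCA
*ANAC080*, chr5:2436958-2436978, plus strand: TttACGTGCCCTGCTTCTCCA
*NAC100*, chr5:24701687-24701707, minus strand: TctACGTGCCCTGCTTCTCCA
*NAC054* (*CUC1*), chr3:5111137-5111157, plus strand: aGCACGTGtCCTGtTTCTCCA
*NAC098* (*CUC2*), chr5:21902301-21902321, minus strand: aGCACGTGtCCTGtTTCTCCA
All 5 sites lie in coding sequence of a single exon and have 2 or 3 bases in lower case. The best window in each of the other members had at least 6 bases outside Watson-Crick pairs. Capitals run unbroken over the bases opposite the 5′ part of the miRNA in *NAC021*, *ANAC080* and *NAC100*. *CUC1* and *CUC2*, the organ boundary factors, share the same site, whose lower-case t bases stand opposite G. The letters are from the TAIR10.1 genome.

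All 4 tested miR164 targets had a positive log2 fold change, with a median of 0.39, and none passed the threshold (limma). At an unadjusted p under 0.05, 2 were higher, against 11.4% of all tested genes. *ANAC080* had 78.1, 69.6 and 77.1 FPKM in *CEPDL2ox* roots, against 59.3, 44.0 and 60.2 FPKM in WT roots. The groups did not overlap, and the log2 fold change was 0.46 (SE 0.13, adjusted p = 0.079). *NAC100* had 37.2, 35.7 and 31.0 FPKM in *CEPDL2ox* roots, against 24.1, 26.3 and 33.0 FPKM in WT roots, with overlap through WT replicate 3 and an adjusted p of 0.20. *CUC1* (*NAC054*) was near the filter, with 2.81, 1.41 and 1.51 FPKM in *CEPDL2ox* roots, against 0.437, 1.65 and 0.659 FPKM in WT roots, and its log2 fold change of 0.62 had an SE of 0.32. *NAC021* differed by less than its spread, with 53.8, 68.1 and 52.2 FPKM in *CEPDL2ox* roots against 49.5, 55.9 and 61.5 FPKM in WT roots, and its log2 fold change of 0.06 turned negative without *CEPDL2ox* replicate 2 or without WT replicate 1. *CUC2* (*NAC098*) averaged 0.457 FPKM in *CEPDL2ox* and 0.344 FPKM in WT roots and was not tested. *AFB3* had a log2 fold change of 0.36 (SE 0.10, adjusted p = 0.073) and *OBP4*, the other factor downstream of it, one of -0.06 (SE 0.11). *NAC021* overlaps a long non-coding gene over 809 bases. Of the miR164 precursor genes, *MIR164A* was listed at 0 in all 6 libraries. *MIR164B* was listed at 18.5 FPKM in *CEPDL2ox* replicate 3, at 16.1 and 32.3 FPKM in WT replicates 1 and 3, and at 0 in the other libraries, and *MIR164C* at 35.4 FPKM in WT replicate 3 alone. Mature miRNAs are not measured in these tables.

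Members made with a membrane anchor did not pass in any of 12 tested cases (limma). Of these, 4 had an unadjusted p under 0.05, 3 higher and 1 lower, each without overlap between the groups. Backgrounds over all tested genes were 11.4% higher and 11.8% lower at this threshold, and 13.8% and 16.1% without overlap. The list has 16 genes, of which 14 are members by name, and its median log2 fold change was 0.04. *NAC062*, released from the plasma membrane in the cold and under endoplasmic reticulum stress and chosen for mention after its values were seen, came closest, with 25.6, 22.3 and 28.5 FPKM in *CEPDL2ox* roots, against 17.9, 18.2 and 19.4 FPKM in WT roots. Its log2 fold change was 0.44 (SE 0.11) and its adjusted p 0.058, which was 0.045 when the filter was a mean of 5 FPKM. *NAC089*, named to complete the 4 with an unadjusted p under 0.05, had 19.4, 16.7 and 18.4 FPKM in *CEPDL2ox* roots. In WT roots it had 11.8, 14.9 and 14.0 FPKM, and its log2 fold change was 0.40 (SE 0.12, adjusted p = 0.092). *ANAC091* (TIP), first found as a partner of a viral coat protein, had 38.1, 41.2 and 51.5 FPKM in *CEPDL2ox* roots, against 31.9, 33.2 and 36.7 FPKM in WT roots, with a log2 fold change of 0.34 (SE 0.12, adjusted p = 0.15). *NAC053*, a regulator of proteasome genes, ran the other way without overlap, with 73.5, 71.7 and 64.8 FPKM in *CEPDL2ox* roots against 76.0, 82.1 and 84.2 FPKM in WT roots, and its log2 fold change was -0.20 (SE 0.08, adjusted p = 0.18). *NAC017*, which carries stress signals from mitochondria, had 38.4, 37.1 and 37.8 FPKM in *CEPDL2ox* roots, against 37.5, 42.3 and 37.4 FPKM in WT roots, and *NAC078* had 37.0, 37.8 and 34.3 FPKM in *CEPDL2ox* roots, against 31.8, 39.1 and 38.0 FPKM in WT roots. Both differences were within the spread. Mitochondrial stress genes downstream of *NAC017* and *NAC13* (*AOX1A*, *AOX1D*, *UPOX*, *OM66* and *NDB2*) did not pass in any of 5 cases (1 at an unadjusted p under 0.05) and had a median log2 fold change of -0.03.

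None of the vessel and secondary wall switches passed the threshold in limma, and none had an unadjusted p under 0.05. Of the 15 members in this list 12 were tested, 5 with a positive and 7 with a negative log2 fold change, a median of -0.09 and a range from -0.42 to 0.23. The 7 VND genes, which start vessel differentiation, were all low, between 1.04 FPKM for *VND5* (*NAC026*) and 5.20 FPKM for *VND3* (*NAC105*) on average over the 6 libraries. *VND3* had 5.37, 4.27 and 5.37 FPKM in *CEPDL2ox* roots, against 5.19, 4.73 and 6.26 FPKM in WT roots. *VNI2* (*ANAC083*), a repressor that binds *VND7*, was the most abundant member of the list, with 149, 146 and 121 FPKM in *CEPDL2ox* roots, against 112, 112 and 128 FPKM in WT roots. Its groups overlapped, and its log2 fold change was 0.23 (SE 0.10, adjusted p = 0.22). *SND3* (*NAC010*), an activator of secondary wall genes, had 24.5, 27.1 and 21.4 FPKM in *CEPDL2ox* roots, against 22.7, 20.8 and 24.0 FPKM in WT roots. The next gene by level, *anac075*, had 6.70, 5.74 and 6.0 FPKM in *CEPDL2ox* roots, against 5.73, 7.98 and 6.29 FPKM in WT roots. The fibre switches *NST1* (*NAC043*) and *NST2* (*NAC066*) were listed at 0 in every library. Among 9 tested genes of the vessel programme, *LBD30*, a target of VND factors that acts in tracheary element formation, rose, with 7.27, 5.83 and 7.55 FPKM in *CEPDL2ox* roots against 3.62, 3.20 and 4.09 FPKM in WT roots. Its log2 fold change was 0.76 (SE 0.15, adjusted p = 0.031, and 0.053 to 0.11 with any 1 library left out). The other 8 did not pass. Of all 9, 7 had a log2 fold change above 0 and the median was 0.23, with 2 higher and 1 lower at an unadjusted p under 0.05. The log2 fold changes were 0.30 and 0.25 for the vessel proteases *XCP1* and *XCP2*, 0.29 for the wall regulator *MYB46* and 0.23 for the metacaspase *MC9*, and those of the wall cellulose synthases *CESA4*, *CESA7* and *CESA8* were 0.00, -0.14 and -0.37.

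The 5 genes listed for sieve elements, the phloem conducting cells, were low and had negative log2 fold changes between -0.32 and -0.01. None was past the threshold in limma and none had an unadjusted p under 0.05. *anac028* had 0.860, 0.958 and 1.23 FPKM in *CEPDL2ox* roots, against 1.78, 1.43 and 1.34 FPKM in WT roots. These groups did not overlap, but the log2 fold change of -0.32 had an SE of 0.22. *ANAC020* had 1.38, 0.990 and 2.34 FPKM in *CEPDL2ox* roots, against 2.77, 1.56 and 1.48 FPKM in WT roots. *anac057* had 1.68, 2.69 and 4.69 FPKM in *CEPDL2ox* roots, against 3.13, 3.84 and 2.83 FPKM in WT roots, and its log2 fold change turned positive without *CEPDL2ox* replicate 1. *NAC086* had 1.32, 1.03 and 2.21 FPKM in *CEPDL2ox* roots, against 1.92, 1.94 and 1.38 FPKM in WT roots. *NAC045* averaged 1.05 FPKM in *CEPDL2ox* and 1.16 FPKM in WT roots, and its transcript shares 27.2% of its 75-base windows with the glutathione transferase gene *GSTF11* on the opposite strand. The sieve element genes *APL*, *NEN1*, *NEN2*, *NEN4* and *SEOR1* did not pass either, also not at an unadjusted p under 0.05, with a median log2 fold change of 0.04.

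Among the 17 tested members in no role list, none passed in limma. At an unadjusted p under 0.05, *NAC018*, given above, and *anac097* were higher and *ANAC094* was lower. The backgrounds were 11.4% of all tested genes higher and 11.8% lower. *anac097* had 18.5, 19.3 and 19.9 FPKM in *CEPDL2ox* roots, against 16.9, 7.97 and 13.9 FPKM in WT roots, with a log2 fold change of 0.59 (SE 0.23, adjusted p = 0.18) that was 0.30 (SE 0.12, adjusted p = 0.22) without WT replicate 2. The WT libraries differed from each other by more than 2-fold, whereas the *CEPDL2ox* libraries were close together. *ANAC094* was the lower counterpart, with 1.34, 1.56 and 1.44 FPKM in *CEPDL2ox* roots, against 2.29, 2.94 and 2.51 FPKM in WT roots. Its groups did not overlap, its log2 fold change was -0.55 (SE 0.19, adjusted p = 0.13), and about 8.04 reads in *CEPDL2ox* and 16.0 reads in WT stood behind the median library. Over all 63 tested members, the groups did not overlap in 14 that were higher in *CEPDL2ox* roots (22.2%, background 13.8%) and in 4 that were lower (6.35%, background 16.1%). For a single gene without overlap the exact two-sided permutation test gave p = 0.10, the smallest it can give with 3 libraries per group.

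**Figure D3:**
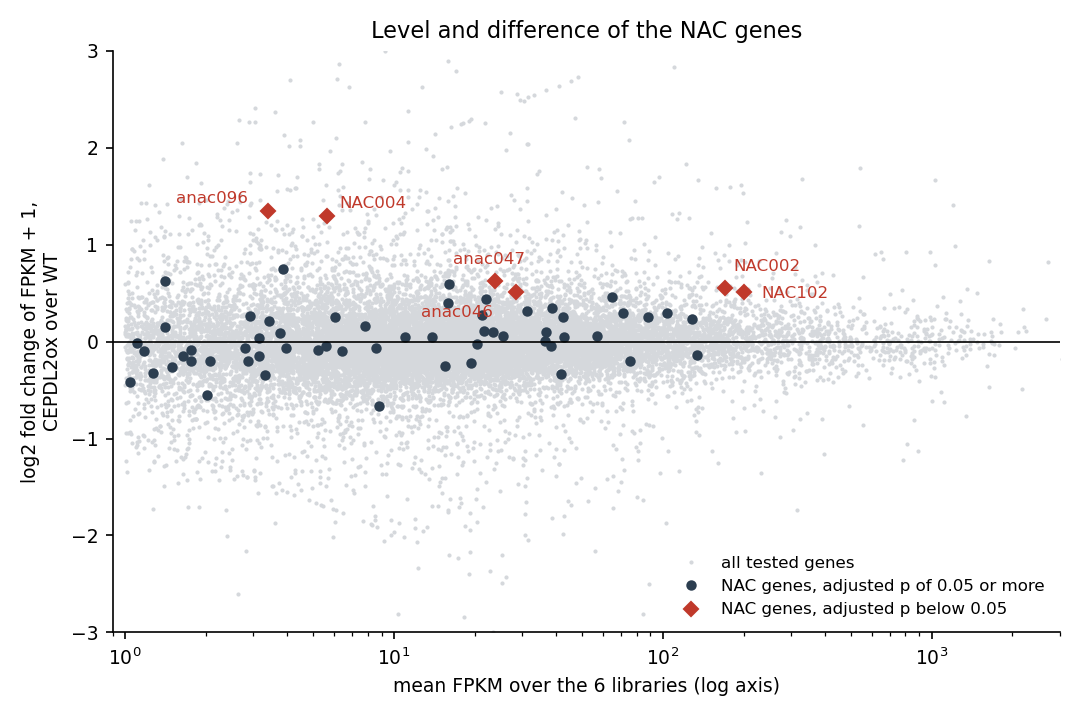
Mean FPKM over the 6 libraries (log axis) against the log2 fold change of FPKM + 1 in *CEPDL2ox* over WT roots, for all 19597 tested genes (grey; a few beyond ± 3 are outside the axis) and the 63 tested NAC genes. The NAC genes lie on both sides of 0, with 36 above and 27 below. Of the 40 with a mean of at least 5 FPKM, 28 lie above. The 6 with an adjusted p under 0.05 (red) include members at a few FPKM and at over 100 FPKM.

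Of the tested members, 36 had a positive and 27 a negative log2 fold change (57.1% positive, against 45.5% of all tested genes), with a median of 0.05. Among the 40 members with a mean of at least 5 FPKM, 28 were positive and the median was 0.11, against -0.02 over all 15830 such genes. The remaining 27 members were under the filter. Of these, 12 were listed at 0 in all 6 libraries, and 15 were above 0 in at least 1 library. One of the members at 0, *anac067*, shares 30.7% of its 75-base windows with *NAC68*, and how such reads were divided is not given in the sources used here. *NAC60* (*ANAC060*), also chosen after its values were seen, was the one other member under the filter whose groups did not overlap, at 0.932, 1.31 and 1.20 FPKM in *CEPDL2ox* roots against 0.348, 0.492 and 0.350 FPKM in WT roots. *ANAC023* was the one member highest in WT replicate 1 at over 2 times each other library, and it was listed at 0.200 FPKM there and at 0 elsewhere. WT replicate 1 was nevertheless the lowest library for 22 of the 63 tested members and the highest for 7. In the other 5 libraries the lowest value fell for 6 to 12 members and the highest for 9 to 13. These counts were not made over all tested genes, so they cannot be read as a trait of the members.

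The number of members that passed depended on single libraries. Without WT replicate 1, *NAC004* was higher (log2 fold change 1.301, adjusted p = 0.037) and *NAC055* lower, while the other 5 members that rose had adjusted p values of 0.070 to 0.12. The background was then 1.82% of genes higher and 0.786% lower. Without *CEPDL2ox* replicate 1, no member passed in limma, against a background of 1.32% higher and 0.505% lower. At an unadjusted p under 0.05 that fit had 12 members higher (19.0%, background 9.40%) and 2 lower (3.17%, background 9.66%). The adjusted p of *NAC004* was 0.053 in that fit and those of the other 5 were 0.064 to 0.13. All 6 log2 fold changes stayed positive in each of the 6 fits, as they must for genes whose groups do not overlap. With all libraries but no filter on low values, none of the 90 members passed in limma, and at an unadjusted p under 0.05 there were 14 higher (15.6%, background 6.82%) and 3 lower (3.33%, background 7.07%).

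**Figure D4:**
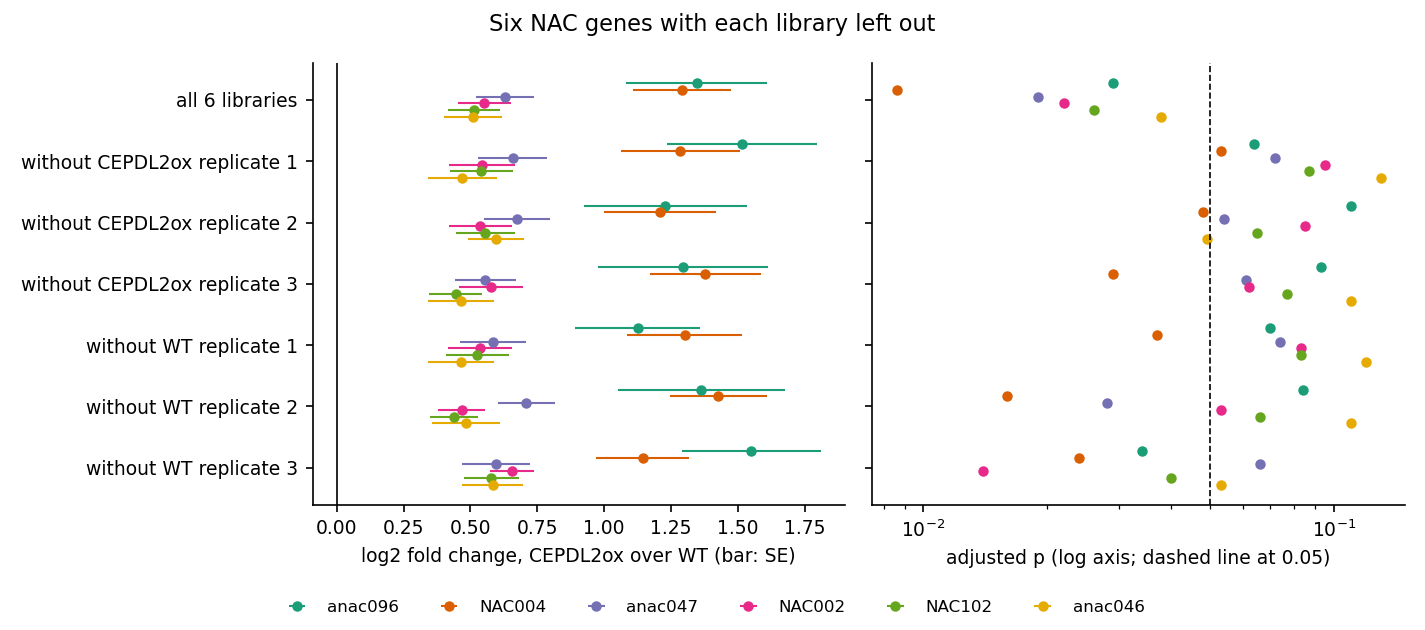
Log2 fold change with its SE (left) and adjusted p on a log axis (right) of the 6 NAC genes with all 6 libraries and with each library left out in turn. The log2 fold changes stay between 0.44 and 1.55 throughout, while the adjusted p of *NAC004* alone is under 0.05 in 5 of the 6 fits on 5 libraries and that of the other 5 genes passes in 1 of them each.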

How the data were processed

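The authors sequenced TruSeq (v2) libraries, mapped them to TAIR10 in the BaseSpace hub and deposited FPKM per gene, 1 table of 33557 genes per library, without pooling replicates. The program that computed FPKM is not given in the sources used here. Groups come from the sample labels. Differences were fitted with limma 3.58.1 in R 4.3.3 (lmFit, eBayes with intensity trend) on log2(FPKM + 1) over genes averaging 1 FPKM or more, and calls used the thresholds in the authors' methods, an adjusted p under 0.05 and an absolute log2 fold change above 1. The fit was tested on simulated data. Depth was estimated from genes above 0 in a single library, with transcripts over 600 bases and an offset of 200 bases.

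The members and role lists were chosen with earlier results of these data known, so lists are described by counts and medians without a set test. Named members are those with an adjusted p under 0.05, those without overlap between groups at an absolute log2 fold change above 0.5, the 4 highest of each list and the 5 highest in all, and those highest in WT replicate 1 at over 2 times each other library. *NAC062*, *NAC055* and *NAC60* were named after their values were seen, and other members outside the rule complete a branch or list, are low or at 0, or share sequence with another gene. From the other lists, genes past the adjusted p are named, as is *CEPDL2*; further genes of these lists are given to show their range. Strict matching of capitals was added later as an alternative. Positions and sequences are from RefSeq TAIR10.1. All 90 members were matched by identifier, and 99.997% of the matched genes overlap their position in the tables. Identity was taken from global alignments of coding sequences in Biopython, and 75-base windows were compared on both strands of the longest transcripts.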

Additional observations from a re-analysis of the deposited data

How the results depend on the processing

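The 6 members that rose were the same with a pseudocount of 0.1, after rescaling by the median of ratios (size factors 0.987 to 1.013), after quantile normalization and with the replicate block. The block left 2 members called higher. Same-numbered libraries did not deviate together over all tested genes (correlations -0.032, 0.019 and 0.00064). This cannot show whether the numbers pair the libraries, and the sources used here do not say. A filter at a mean of 5 FPKM left 6 members past the adjusted p, now with *NAC062*, and 1 called higher. The filter removed *anac096*, which averaged 3.39 FPKM, so it was not tested there. Without a filter none passed in limma (14 higher and 3 lower at an unadjusted p under 0.05, against 6.82% and 7.07% of all genes) and none was called, while all genes gave 87 higher and 24 lower, against 228 and 83 with the filter. Without the intensity trend 3 members passed higher and 1 lower, *ANAC094* (log2 fold change -0.55, adjusted p = 0.041). Strict capitals left 3 members past the adjusted p and 1 called. The median log2 fold change of the members, 0.05, was 0.11 with the filter at 5 FPKM, 0.013 without a filter and 0.069 after quantile normalization. With each library left out in turn, 0 to 4 members passed higher, 0 to 1 lower, 0 to 2 were called higher, and the median was 0.014 to 0.10, while all genes gave 154 to 206 higher and 49 to 77 lower. In the same fits the sign turned for 22 of the 63 tested members, which had unadjusted p values of 0.36 to 0.96 with all libraries. Among those named by rule, log2 fold changes ran from -0.074 to 0.013 for *NAC017*, -0.063 to 0.13 for *NAC021*, -0.43 to 0.11 for *anac057*, -0.18 to 0.026 for *anac075*, -0.083 to 0.063 for *NAC078* and -0.16 to 0.0072 for *NAC105*. The median of the membrane-tethered members was -0.01 without WT replicate 1. Causes were not tested. Depth limits members under 1 FPKM, for which single reads set the values.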

Other observations

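A further 23 genes with a NAC-domain product in RefSeq carry other names in the tables and fall outside the rule, and 11 of them were tested. None passed in limma, and 1 had an unadjusted p under 0.05, *AT3G12977*, with 21.9, 25.4 and 18.7 FPKM in *CEPDL2ox* roots against 14.9, 13.3 and 16.6 FPKM in WT roots (log2 fold change 0.53, SE 0.13, adjusted p = 0.063). The values of the others are given here although no rule names them. *NTL9* had a log2 fold change of -0.20 (SE 0.12), *AT3G29035* one of -0.08 (SE 0.08) and *AT3G15510* one of 0.26 (SE 0.22). *JUB1*, a regulator of ageing and of hydrogen peroxide responses, had the lowest log2 fold change, -0.77 (SE 0.37), with 9.04, 15.2 and 4.57 FPKM in *CEPDL2ox* roots against 11.7, 20.3 and 15.5 FPKM in WT roots, and its groups overlapped. The root cap factors *SMB*, *BRN1*, *BRN2* and *FEZ* had log2 fold changes of 0.11, 0.41, 0.14 and -0.09. For *BRN1* these came from 15.5, 16.1 and 21.8 FPKM in *CEPDL2ox* roots against 10.1, 14.1 and 15.5 FPKM in WT roots, with the lowest adjusted p of the 4, 0.23. *VNI1* had 59.5, 53.7 and 53.5 FPKM in *CEPDL2ox* roots against 48.3, 46.0 and 52.3 FPKM in WT roots, with no overlap, a log2 fold change of 0.18 (SE 0.08) and an adjusted p of 0.24. *ORE1*, a known miR164 target, had 6.61, 7.18 and 7.49 FPKM in *CEPDL2ox* roots against 4.46, 7.91 and 4.82 FPKM in WT roots, and a log2 fold change of 0.30 (SE 0.20). Sites of miR164 were searched in the 90 members only, not in these genes.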
